A study of Arabidopsis thaliana with 6 samples.

Results

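The genes described here are 10 components of the switch that seedlings use to separate growth in the dark from growth in the light. They are the ubiquitin ligase gene COP1, its partner genes SPA1, SPA2, SPA3 and SPA4, the genes DET1, COP10 and DDB1A of the CDD complex, and the transcription factor genes HY5 and HYH. They were taken by name and locus identifier, with earlier results of these data known, and all 10 were among the 32884 rows of the deposited tables. RNA sequencing gave their transcript levels in Arabidopsis thaliana seeds of the Col-0 accession, in 3 wild-type libraries and 3 libraries of hda15-1, which carries a mutation in HDA15, a gene for a histone deacetylase, in the same accession. Parent plants had days with 16 h of light at 22 °C, and seeds were dried for about 1 month. All 6 samples took up water for 1 h, received 5 min of far-red light (3.82 µmol m-2 s-1) and were kept in darkness at 22 °C for 12 h, so the groups differ in genotype and not in light. The mutant was represented by 1 allele, and the labels leave unstated whether replicate libraries were made from different batches of seed. The p-values therefore measure the spread between these 6 samples, and that spread may be technical.

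In darkness COP1, a RING finger ubiquitin ligase, works in complexes with SPA proteins and marks HY5 and other light-promoting factors for degradation. DET1, COP10 and DDB1A form the CDD complex, which associates with CUL4 ligases and also represses light responses in the dark. HY5 and its relative HYH are bZIP factors that bind DNA elements with an ACGT core and promote seedling greening. Light receptors, phytochromes and cryptochromes among them, inactivate the COP1 and SPA complex. Much of this control acts on protein stability and location, which transcript levels do not measure.

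HY5 binds elements around ACGT, and the 250 bases before the annotated starts of HY5 and COP1 are shown to place these letters in the factor's own gene and in that of its repressor. They were read 5′ to 3′ along each gene's own strand from the RefSeq TAIR10.1 assembly, and capitals mark ACGT. The windows are chr5:3595074-3595323 on the minus strand for HY5 and chr2:13977631-13977880 on the plus strand for COP1.
HY5: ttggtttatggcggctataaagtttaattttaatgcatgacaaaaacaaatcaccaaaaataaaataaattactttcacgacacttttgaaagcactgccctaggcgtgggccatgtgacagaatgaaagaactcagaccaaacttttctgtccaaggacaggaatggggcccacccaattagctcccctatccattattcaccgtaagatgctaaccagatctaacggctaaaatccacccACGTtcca
COP1: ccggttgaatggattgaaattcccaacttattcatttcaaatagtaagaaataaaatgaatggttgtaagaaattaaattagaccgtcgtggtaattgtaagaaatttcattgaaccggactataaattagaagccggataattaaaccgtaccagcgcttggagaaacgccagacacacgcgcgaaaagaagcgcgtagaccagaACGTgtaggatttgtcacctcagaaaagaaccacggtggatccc
Positions count back from -1, the base before the start, and forward from 1. The search covered 250 bases before and 50 bases after an annotated start. The 3 motifs described read the same on both strands, and the ACGT core lies inside the other two. ACGT was present at position -8 of HY5 and at positions -44 and 35 of COP1, and in 49.9% of the windows of 27443 protein-coding genes. It was also present in the windows of HYH, SPA1, SPA2, SPA3, SPA4 and DDB1A, and not in that of DET1. The C-box GACGTC was present in COP1, at position 34 after the start and so beyond the bases shown, and in 2.88% of all windows. The A-box TACGTA was present in SPA2 at position -109 and DDB1A at position -233, and in 5.55% of all windows. These matches are letters in a window and not measured binding sites.

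Levels are FPKM, a fragment count divided by transcript length and by sequencing depth. Comparison between genes of unlike length is approximate, as the balance of long and short transcripts differed between libraries (described below). Sums of FPKM per library ran from 879239 to 1159516, and log2 values of tested genes correlated between libraries at r = 0.937 to 0.980. The lowest peak of FPKM multiplied by transcript length was taken as 1 fragment. It gave an FPKM of 0.0811 to 0.111 for 1 fragment in 1 kb of transcript, from which approximate fragment numbers follow. HDA15 (AT3G18520), the mutated gene, was at 16.1, 13.0 and 14.8 in wild-type seeds and at 0.338, 0.651 and 0.417 FPKM in the mutant ones. It was lower in every mutant library (log2 fold change -3.41 ± 0.18, SE; adjusted p = 3.79e-04, limma). Seed identity was marked by storage and maturation genes, whose 8 members summed to between 32903 and 59333 FPKM in every library. Of 5 endosperm markers EPR1 was abundant, at 9045 ± 2164 FPKM (SD, n = 3) in wild type, while ZOU and FIS2 were listed at 0 in every library. Of 5 green leaf markers CA1 was at 0.330 FPKM or below, but RBCS1A reached 614.8 FPKM. The 4 seed coat markers summed to at most 2.45 FPKM, with BAN listed at 0 throughout. Summed marker levels of the genotypes overlapped for each of these 4 lists. In whole seeds, fewer cells of a type and less RNA per cell cannot be told apart.

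Transcripts of the CDD genes, SPA2 and COP1 were the most abundant of the 10, while those of SPA3, SPA4 and HY5 averaged under 1 FPKM. DDB1A had the highest mean over the 6 libraries, 63.3 FPKM, followed by DET1 at 28.3, COP10 at 25.7, SPA2 at 23.3, COP1 at 13.7 and SPA1 at 6.40 FPKM. HYH at 1.34, SPA4 at 0.811, SPA3 at 0.762 and HY5 at 0.452 FPKM closed the order. DDB1A stood above DET1, COP1 above SPA1, and SPA1 above HYH in every library without overlap of their ranges. DET1, COP10 and SPA2 overlapped as neighbours, as did HYH, SPA4, SPA3 and HY5, and SPA2 exceeded COP1 in each of the 6 libraries although their ranges overlapped. DDB1A ranked above 90.3% of the genes with a value above 0, COP1 above 69.5%, SPA1 above 56.1% and HY5 above 23.8%.

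**Figure D1:**
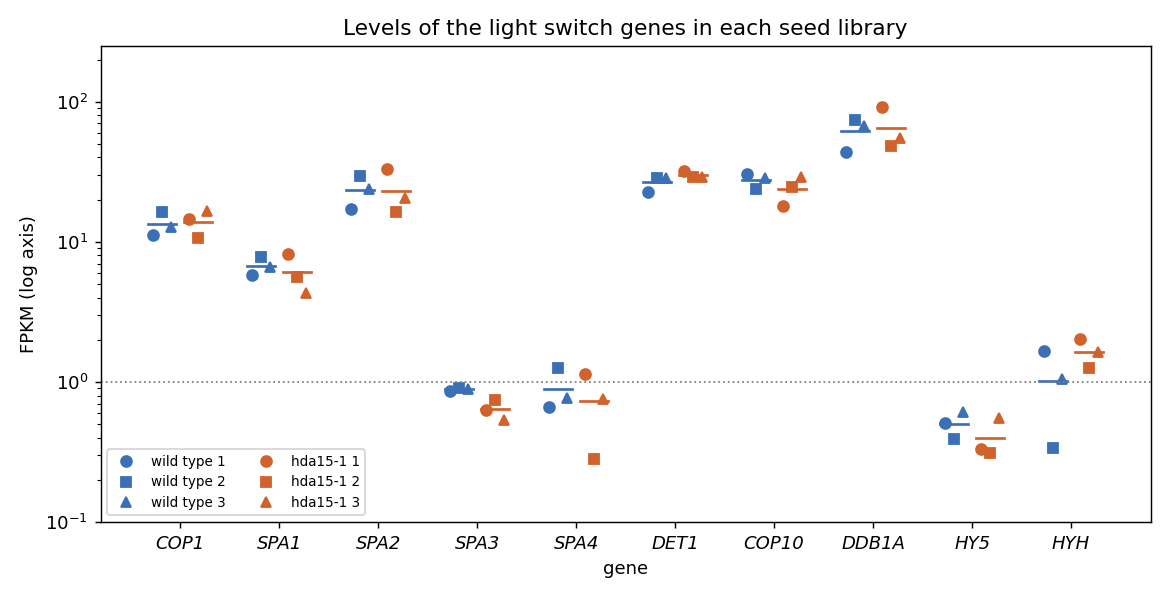
FPKM of each member (log axis) in the 3 wild-type libraries (blue) and 3 hda15-1 libraries (orange), with symbols for the replicate number, short lines for group means and a dotted line at 1 FPKM, the minimum mean for testing. DDB1A is highest at 44.1 to 91.8 FPKM, and HY5 lies at 0.310 to 0.609 FPKM. Among the 7 genes tested the genotypes overlap for all but DET1, where 9.21% of all genes tested do not overlap. They also do not overlap for SPA3, whose mean is below the dotted line.

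None of the members passed the test between hda15-1 and wild type. The test was limma on log2(FPKM + 1) over 15045 genes whose mean reached 1 FPKM, and its threshold was an adjusted p of 0.05. The 7 members COP1, SPA1, SPA2, DET1, COP10, DDB1A and HYH reached that mean, and 0 of the 7 were called, where 0.219% of all genes tested were, 0.199% higher and 0.0199% lower in hda15-1. At an unadjusted p under 0.05 there were also 0 of the 7, against 4.28% of all genes tested. Groups did not overlap for 1 of the 7, DET1, which was higher in hda15-1, against 9.21% of all genes tested (5.78% higher and 3.43% lower in hda15-1). SPA3, SPA4 and HY5 were below the minimum mean. In limma with no filter on the mean, where 0.12% of 21626 genes were called, they were not called either. The median log2 fold change of the 7 was 0.04, against 0.02 over all genes tested. Its sign turned when libraries were brought to an equal upper quartile (-0.03) or an equal sum (-0.05). The median of all genes tested turned as well, to -0.04 and -0.06. The median of the 7 also turned without wild type 1 (-0.14) or without hda15-1 1 (-0.04). It was 0.17 without wild type 2 and 0.19 without hda15-1 2.

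**Figure D2:**
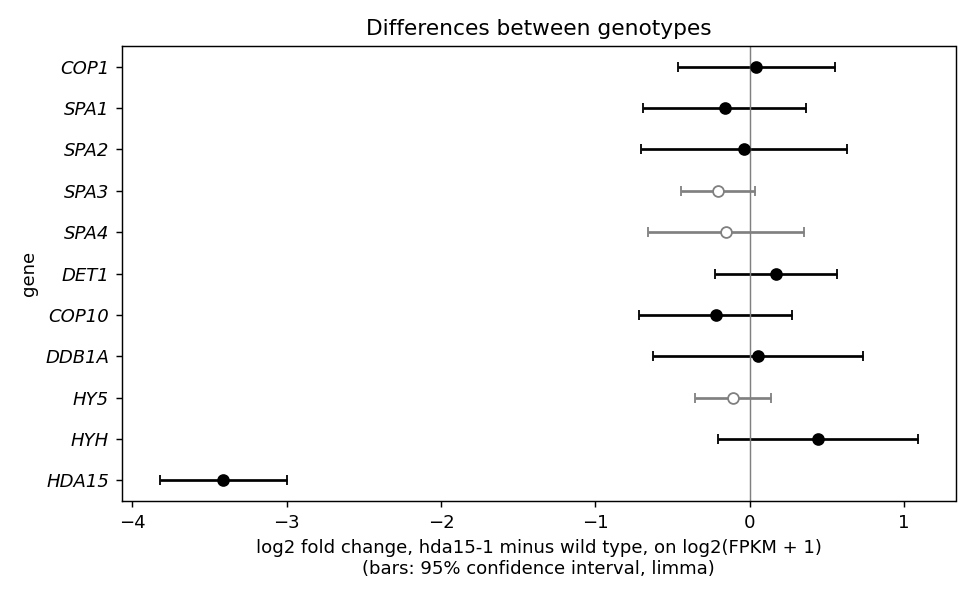
Log2 fold change of hda15-1 over wild type on the log2(FPKM + 1) scale, with 95% confidence intervals from limma, for the 10 members and HDA15. Open grey points are the 3 genes below the minimum mean, from the fit with no filter; every member's interval includes 0, while HDA15 lies at -3.41.

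COP1 (AT2G32950), the ligase gene, lies on the plus strand of chromosome 2 of TAIR10.1, from 13977881 to 13983609, and has 13 exons in its longest transcript. It was at 11.2, 16.4 and 12.9 in wild-type seeds and at 14.6, 10.7 and 16.7 FPKM in the mutant ones, values that rest on about 266 to 501 fragments a library. The lowest and the highest library were both hda15-1, and the groups overlapped throughout. The log2 fold change was 0.04 ± 0.22 (SE, n = 3 each; adjusted p = 1.000, limma), and the 95% confidence interval ran from 0.725 to 1.46 times the wild-type level on the FPKM + 1 scale.

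The 4 SPA genes code for WD-repeat proteins that join COP1 in its complexes. SPA2 (AT4G11110), on chromosome 4 from 6771605 to 6777225, was at 17.2, 29.3 and 23.7 in wild-type seeds and at 32.8, 16.4 and 20.5 FPKM in the mutant ones. SPA1 (AT2G46340), on chromosome 2 from 19022154 to 19027528, was at 5.84, 7.74 and 6.66 in wild-type seeds and at 8.17, 5.65 and 4.35 FPKM in the mutant ones. In both genes wild-type values lay within the range of the mutant ones. Intervals given in times the wild-type level, here and below, are on the FPKM + 1 scale. Their log2 fold changes were -0.04 ± 0.29 for SPA2 and -0.16 ± 0.23 for SPA1 (SE, n = 3 each; both adjusted p = 1.000, limma), with intervals of 0.612 to 1.55 times and 0.619 to 1.29 times the wild-type level.

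SPA3 and SPA4, which are closely related to each other, both had means under 1 FPKM. SPA3 (AT3G15354), on chromosome 3 from 5169095 to 5173105, was at 0.860, 0.908 and 0.893 in wild-type seeds and at 0.630, 0.743 and 0.540 FPKM in the mutant ones. Each hda15-1 library was below each wild-type library, on about 17 to 39 fragments. Among the genes tested, which leave out SPA3, groups did not overlap for 9.21%, with 3.43% lower in hda15-1. The difference of SPA3 did not pass in limma with no filter on the mean (log2 fold change -0.21 ± 0.10, SE, n = 3 each, unadjusted p = 0.0831, adjusted p = 0.966). SPA3 overlaps AT3G15350 on the other strand by 135 bp, and the sources do not say if strand was used in counting, so reads in that stretch cannot be assigned. SPA4 (AT1G53090), on chromosome 1 from 19783185 to 19786902, was at 0.659, 1.25 and 0.776 in wild-type seeds and at 1.15, 0.285 and 0.753 FPKM in the mutant ones, on about 9 to 47 fragments. Its groups overlapped, and hda15-1 2 held the lowest value.

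SPA2 held most of the SPA transcripts in every library. Its share of the summed SPA1 to SPA4 FPKM was 70.1%, 74.8% and 74.0% in wild type and 76.8%, 71.0% and 78.4% in hda15-1. The share of SPA1 was 23.7%, 19.7% and 20.8% in wild type and 19.1%, 24.5% and 16.7% in hda15-1. SPA3 and SPA4 together made up the rest, each at most 3.50% of the sum. A share within a library does not depend on scaling between libraries, and neither the share of SPA2 (difference 2.43 percentage points, exact permutation p = 0.4, two-sided) nor that of SPA1 (difference -1.33 percentage points, exact permutation p = 0.7) passed the test. In 3 libraries against 3 this exact test cannot go below p = 0.1, and all 7 shares and ratios tested had an adjusted p of 0.7. The summed SPA level was 32.0 ± 7.32 in the wild type and 30.7 ± 10.6 FPKM in the mutant (SD, n = 3 each).

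**Figure D3:**
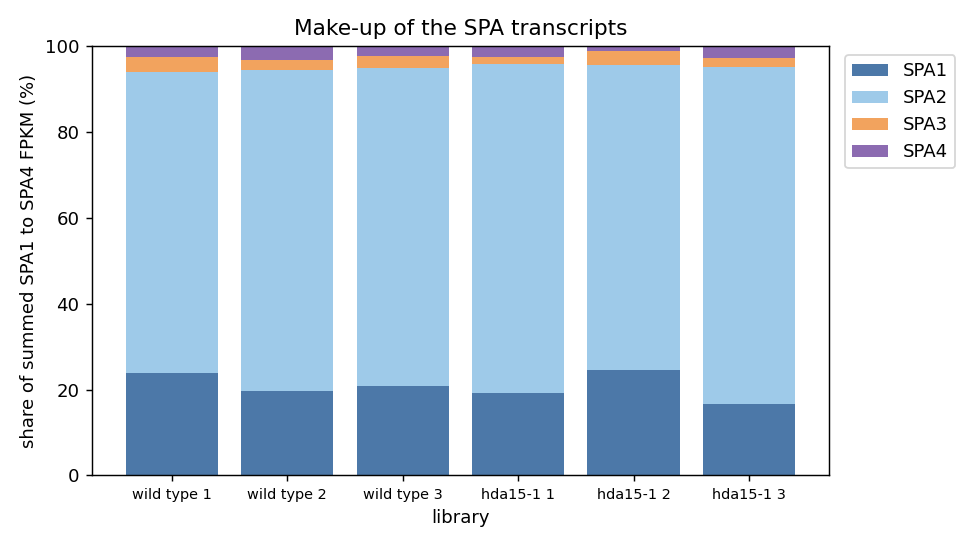
Share of the summed SPA1 to SPA4 FPKM (%) held by each SPA gene in each of the 6 libraries, as stacked bars that add up to the whole. SPA2 fills 70.1% to 78.4% and SPA1 16.7% to 24.5% of each bar.

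None of the 3 CDD genes passed the test. DET1 (AT4G10180), on chromosome 4 from 6346411 to 6349314, codes for a nuclear repressor of light responses. It was at 22.7, 28.4 and 28.7 in wild-type seeds and at 31.9, 29.1 and 28.8 FPKM in the mutant ones. The groups did not overlap, but the highest wild-type and the lowest mutant library were nearly equal, and the log2 fold change of 0.17 ± 0.17 did not pass (SE, n = 3 each; adjusted p = 1.000, limma; interval 0.856 to 1.48 times the wild-type level). DET1 had the narrowest range of the 10 members over the 6 libraries, with a highest value 1.404 times the lowest. Its log2 fold change was 0.064 without wild type 1. It was 0.10 and 0.074 with libraries brought to an equal upper quartile or an equal sum. The median of all genes tested was then -0.04 and -0.06.

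COP10 (AT3G13550, FUS9 in the annotation), on chromosome 3 from 4423237 to 4424894, codes for a protein related to ubiquitin-conjugating enzymes. It was at 30.7, 23.7 and 28.3 in wild-type seeds and at 18.1, 24.5 and 28.8 FPKM in the mutant ones. Only hda15-1 1 lay below all wild-type libraries, and the log2 fold change was -0.22 ± 0.21 (SE, n = 3 each; adjusted p = 1.000, limma; interval 0.609 to 1.21 times). Without hda15-1 1 it was -0.045, without hda15-1 3 it was -0.37 and without wild type 1 it was -0.14.

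DDB1A (AT4G05420), on chromosome 4 from 2746114 to 2753014, codes for the adaptor that links substrate receptors to CUL4. It was at 44.1, 73.9 and 66.8 in wild-type seeds and at 91.8, 48.6 and 54.7 FPKM in the mutant ones. The highest value was that of hda15-1 1 and the lowest that of wild type 1, and the log2 fold change was 0.05 ± 0.30 (SE, n = 3 each; adjusted p = 1.000, limma; interval 0.648 to 1.66 times). Its near copy DDB1B (AT4G21100), which overlaps AT4G21105 on the other strand by 127 bp, was at 13.4, 16.5 and 17.1 in wild-type seeds and at 24.3, 13.4 and 8.39 FPKM in the mutant ones. The coding sequences of DDB1A and DDB1B were identical at 87.4% of 3266 aligned bases, but only 10 of the 3232 words of 36 bases in DDB1A occurred in DDB1B. No such word was shared between SPA1 and SPA2, between SPA3 and SPA4 or between HY5 and HYH. The read length is not given in the sources used here, so how many reads such words cover is unknown. DDB1A exceeded DDB1B by 3.29 to 6.52 times within a library, and the log2 ratio was 1.95 ± 0.22 in wild type and 2.16 ± 0.47 in hda15-1 (SD, n = 3 each; exact permutation p = 0.7, two-sided).

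HY5 (AT5G11260), the factor that COP1 marks for degradation, lies on the minus strand of chromosome 5, from 3593335 to 3595073. It was at 0.512, 0.395 and 0.609 in wild-type seeds and at 0.334, 0.310 and 0.550 FPKM in the mutant ones. These values rest on about 4 to 8 fragments a library, and the groups overlapped. With no filter on the mean its log2 fold change was -0.11 ± 0.10 (SE, n = 3 each, 95% interval -0.36 to 0.14, adjusted p = 1.000, limma). The smallest difference detectable on so few fragments was not computed, and the FPKM + 1 scale understates changes of so low a gene. HY5 was at 0.0229 to 0.0474 times the COP1 level, and the log2 ratio was -4.74 ± 0.55 in wild type and -5.16 ± 0.27 in hda15-1 (SD, n = 3 each; exact permutation p = 0.3, two-sided).

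HYH (AT3G17609), on chromosome 3 from 6023844 to 6024710, shares part of the HY5 function. It was at 1.67, 0.337 and 1.05 in wild-type seeds and at 2.04, 1.27 and 1.65 FPKM in the mutant ones. Wild type 2 stood far below the other 5 libraries, on about 3 fragments, and wild type 1 lay above 2 of the mutant libraries. The log2 fold change of HYH was 0.44 ± 0.28 (SE, n = 3 each; unadjusted p = 0.158, adjusted p = 1.000, limma), with an interval of 0.865 to 2.12 times on the FPKM + 1 scale. Leaving out wild type 2 gave 0.17, leaving out wild type 1 gave 0.67, and a pseudocount of 0.1 in place of 1 gave 0.84. HYH exceeded HY5 in 5 of the 6 libraries, all but wild type 2. The log2 ratio of HY5 to HYH was -0.75 ± 0.97 in wild type and -2.07 ± 0.52 in hda15-1 (SD, n = 3 each; exact permutation p = 0.2, two-sided), and rests on as few fragments. The difference of -1.32 became -0.83 without wild type 2 and -0.55 with a pseudocount of 1.

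Several members with long transcripts were high or low in the same libraries, whichever the genotype. The balance of long and short transcripts over all genes also differed between libraries, and was examined after the data were seen. Among genes whose mean reached 5 FPKM, the median log2 deviation of 1095 genes with transcripts of 3000 bp or more, minus that of 1795 genes with 1000 bp or less, was -0.13, 0.18 and 0.07 in wild type and 0.49, -0.12 and -0.51 in hda15-1. Both extremes were hda15-1 libraries, hda15-1 1 with more signal in long transcripts and hda15-1 3 with less. SPA1 (4103 bp) was highest in hda15-1 1 and lowest in hda15-1 3, at 0.33 and -0.45 log2 units from its mean. SPA2 (3964 bp) and DDB1A (3792 bp) were also highest in hda15-1 1, at 0.52 and 0.57, while COP10 (978 bp) was lowest there, at -0.47. Their other extremes were elsewhere: SPA2 was lowest in hda15-1 2, at -0.44, DDB1A in wild type 1, at -0.47, and COP10 was highest in wild type 1, at 0.27. COP1 (2474 bp) did not follow this order, with its highest value, 0.28, in hda15-1 3. Nor did HYH (775 bp), which was highest in hda15-1 1, at 0.43. In that library SPA3 (3513 bp) was below its mean, at -0.11, and SPA4 (3047 bp) above it, at 0.27. With a length trend taken out of each library, the SD over the 6 libraries dropped from 0.29 to 0.14 log2 units for SPA1, from 0.39 to 0.30 for SPA2, from 0.39 to 0.30 for DDB1A and from 0.27 to 0.19 for COP10. It was 0.25 before and after for COP1 and 0.42 before and 0.43 after for HYH. The median SD of all genes tested was 0.27 before and 0.26 after, and no member was called in limma after this step. What part the balance had in the members' values was not tested.

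**Figure D4:**
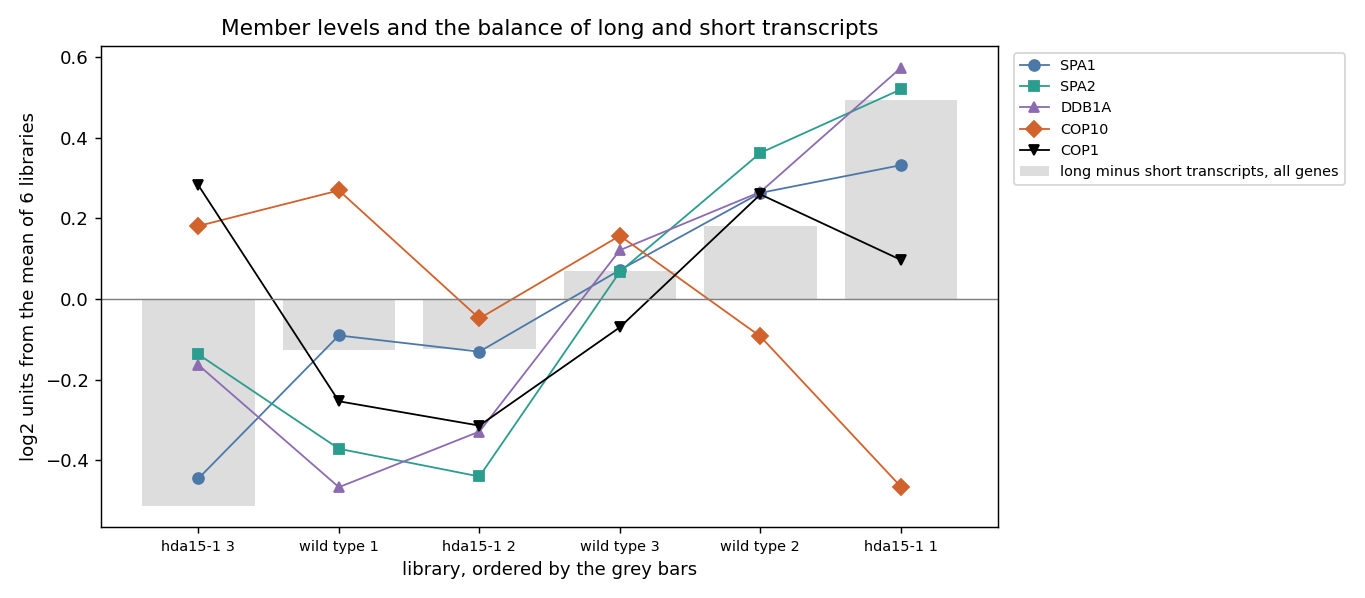
Log2 deviation of 5 members from their mean over the 6 libraries (lines) and the balance of long against short transcripts over all genes whose mean reached 5 FPKM (grey bars), with libraries ordered by that balance from -0.51 to 0.49. SPA1 is lowest (-0.45) at the left end and highest (0.33) at the right, COP10 is lowest (-0.47) at the right, and COP1 is highest (0.28) at the left.

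Other genes of the pathway were examined in 5 lists, none of whose tested members passed the threshold in either direction. All adjusted p-values in these lists were 1.000 in limma. Of the list of CUL4 ligase genes and COP1 partners, 7 of 9 were tested, with a median log2 fold change of -0.05. CIP7 and CIP8, which code for COP1-interacting proteins, averaged 1.304 ± 0.0876 and 35.8 ± 4.89 in the wild type, against 0.945 ± 0.853 and 39.3 ± 5.79 FPKM in the mutant (SD, n = 3 each). The mutant values of CIP7 were 1.93, 0.416 and 0.490 FPKM, and hda15-1 1 lay above every wild-type library. DDA1, a further CDD subunit gene, was at 62.1 ± 4.48 in the wild type and 55.0 ± 15.3 FPKM in the mutant.

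The COP9 signalosome removes the NEDD8 tag from cullins and is needed for COP1 function in seedlings. All 10 of its genes were tested and 0 were called. Their median log2 fold change was 0.17, against 0.02 over all genes tested, and 9 of the 10 were above 0, as were 8191 of all 15045. This shift rested on hda15-1 3. The highest value of the 6 was in that library in 7 of the 10 genes, against 29.4% of all genes tested, and without it the median was -0.01 with 5 of the 10 above 0. The transcripts of these genes measured 884 to 1976 bp, and hda15-1 3 was the library with the least signal in long relative to short transcripts, whose part in the shift was not tested. With the length trend removed from all 6 libraries the median was 0.12. With libraries brought to an equal upper quartile or an equal sum it was 0.10 and 0.07, against -0.04 and -0.06 over all genes tested. CSN3 was at 33.6 ± 3.72 in the wild type and 44.7 ± 13.6 FPKM in the mutant, CSN5A at 19.7 ± 3.91 and 23.9 ± 3.87 FPKM, and CSN1 at 20.7 ± 2.31 and 23.6 ± 0.455 FPKM (SD, n = 3 each). Without hda15-1 3 the log2 fold change of CSN3 went from 0.36 to 0.14 and that of CSN5A from 0.27 to 0.15. The groups of CSN1 did not overlap, as was so for 9.21% of all genes tested.

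Of 17 COP1 substrates and B-box factors, 8 were tested and 4 were listed at 0 in every library. BBX4, a CONSTANS-like gene also named COL3, was at 2.21, 1.399 and 0.962 in wild-type seeds and at 3.31, 3.22 and 1.96 FPKM in the mutant ones. Its groups overlapped. It alone among the tested genes of the 5 lists had an unadjusted limma p below the threshold (unadjusted p = 0.0411, adjusted p = 1.000, limma; log2 fold change 0.61 ± 0.25, SE). The 5 lists had 7, 10, 8, 7 and 10 tested genes, and 4.28% of all genes tested had an unadjusted limma p under 0.05. GBF1, a G-box binding bZIP gene, was at 24.9 ± 5.04 in the wild type and 20.2 ± 1.44 FPKM in the mutant, and BBX20 at 12.4 ± 1.48 and 10.9 ± 1.47 FPKM (SD, n = 3 each). BBX21, which acts with HY5, was abundant at 177.3 ± 20.1 in the wild type and 183.1 ± 57.4 FPKM in the mutant, and HFR1, a substrate of COP1, was at most 0.295 FPKM. Both were named after their values were seen.

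Of 18 known HY5 targets, 7 were tested. The other 11, or 61.1%, had a mean under 1 FPKM, a share near the 54.2% of all 32884 rows. Of these, 5 were listed at 0 in every library, or 27.8% of the list against 34.2% of all rows. The 5 were DFR, LDOX, MYB12, MYB75 and NRT2.1, named after their values were seen, of which DFR and LDOX code for enzymes of anthocyanin synthesis. RBCS1A, for the small subunit of Rubisco, was at 402.2 ± 50.8 in the wild type and 535.6 ± 87.9 FPKM in the mutant. LHCB1.3 (CAB1 in the annotation), a light-harvesting gene, was at 3.39 ± 1.51 and 4.59 ± 0.0561 FPKM, and ABI5, a bZIP gene of abscisic acid signalling, at 111.4 ± 7.17 and 104.03 ± 11.6 FPKM (SD, n = 3 each). The median log2 fold change of the 7 was -0.02.

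Of 12 receptor and UV-B feedback genes, 10 were tested, with a median log2 fold change of -0.03 and values between -0.10 and 0.11. PHYA, the far-red light receptor gene, was at 859.7 ± 119.97 in the wild type and 923.01 ± 94.2 FPKM in the mutant (SD, n = 3 each). CRY1, a blue light receptor gene, was at 14.4 ± 0.829 and 15.6 ± 0.756 FPKM, and FAR1, which acts in phytochrome A signalling, at 7.22 ± 1.18 and 6.74 ± 1.84 FPKM.

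**Figure D5:**
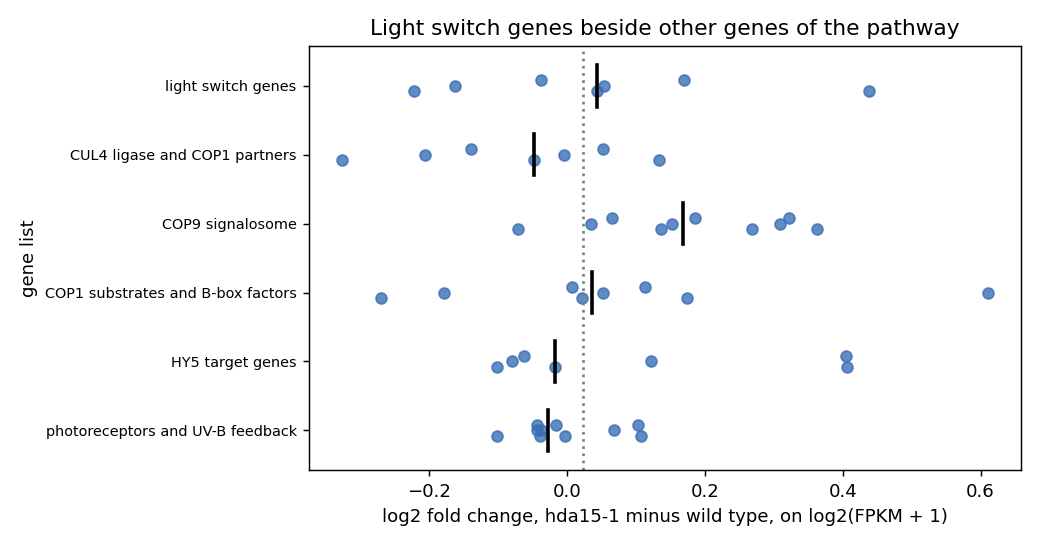
Log2 fold change of hda15-1 over wild type on the log2(FPKM + 1) scale for the tested genes of each list (points) with the list median (black bars), and the median of all genes tested, 0.02, as a dotted line. The light switch genes lie between -0.22 and 0.44 and none of the points passed the threshold.

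Many genes followed COP1 across the 6 libraries. The most alike were CXIP1 (AT3G54900), AT2G43420 and AT1G19660, each with Pearson's r = 0.99 and with Spearman's rho of 1.000, 1.000 and 0.943, and 190 of 15044 genes had an r over 0.9. For HY5 they were the long non-coding RNA AT3G08235 (r = 0.989, rho = 0.986), AT1G45110 (r = 0.977, rho = 1.000) and the beta-glucosidase gene BGLU44 (r = 0.967, rho = 0.886), with 35 of 15045 genes over 0.9. With 6 libraries and so many genes such values are a description of these libraries, which also differ in depth and in the balance of transcript lengths.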

How the data were processed

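Each library had its own table of FPKM values, as deposited by the authors and per the file headers. Tools listed in the submitters' processing notes are Bowtie 0.12.2, Cufflinks and Cuffdiff, with TAIR10 as the build. Settings, annotation version, read length and strand: not given in the sources used here. Positions, transcript lengths and sequences came from RefSeq TAIR10.1, joined by locus; the tables hold no coordinates. Some upstream sequence is not reported here.

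The members and all lists were chosen with earlier results of these data known. RBX1A was left out of its list because the annotation names that locus differently. limma 3.58.1 in R 4.3.3, with trend and genotype as the only term, was fitted on log2(FPKM + 1) for 15045 genes, with two-sided p-values adjusted by Benjamini-Hochberg over all of them. Fold changes on this scale, and intervals given in times the wild-type level, are ratios of FPKM + 1 and understate changes of low genes. Exact permutation tests used scipy 1.17.1. Fragment numbers are estimates from FPKM, the longest transcript and the value of 1 fragment per kb, taken from the lowest values of single-transcript genes; they cover no other error.

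Named genes are HDA15, the members, DDB1B, up to 3 genes with the smallest p and any called gene of each list, and the 3 genes most like COP1 and HY5. On simulated data for this comparison (15045 genes run), 23 of 50 genes changed 2-fold and 48 of 50 changed 4-fold were recovered. There were 8 calls among unchanged genes. The changed genes were picked only among those averaging 5 FPKM or higher. These counts were not split by transcript level or length. They therefore do not give the recovery for genes as low as HYH, SPA3, SPA4 and HY5, or for long and short transcripts separately. Alternatives covered pseudocount, filter, scaling, variance model, replicate block, libraries left out and, added after the data were seen, removal of a length trend.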

Additional observations from a re-analysis of the deposited data

How the results depend on the processing

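No member was called in limma in any of the 17 alternatives, in which 6 to 10 members were tested. The number of all genes called was 33; it was 16 with a mean of at least 5 FPKM, 21 with scaling to the same sum, 16 with the replicate block, 85 among the 4 libraries numbered 2 and 3, and 11 to 36 with 1 library left out (12 without wild type 2, 14 without wild type 3, 11 without hda15-1 2 and 13 without hda15-1 3). Same-numbered libraries did not deviate together (r = -0.08, -0.11 and -0.16), and the labels do not say whether equal numbers mean a shared batch. Between wild-type and mutant libraries of unlike number r ran from -0.08 to 0.21, the highest for wild type 3 with hda15-1 2. Under the block 0 members were called. Some log2 fold changes, none of them called, turned sign. With scaling to the same upper quartile COP1 was at -0.027 and DDB1A at -0.019, and with scaling to the same sum at -0.050 and -0.044. With these scalings the median of all genes tested was -0.04 and -0.06. With the length trend removed SPA2 was at 0.0050. Among libraries numbered 2 and 3, COP1 was at -0.11, DDB1A at -0.44, COP10 at 0.034, DDA1 at 0.051, CIP8 at -0.071, and the SPA1 share differed by 0.34 percentage points. With 1 library left out the ranges were -0.087 to 0.21 for COP1, -0.37 to 0.019 for SPA1, -0.31 to 0.17 for SPA2, -0.22 to 0.23 for DDB1A, -0.51 to 0.20 for DDB1B, -0.40 to 0.011 for DDA1 and -0.29 to 0.032 for FAR1, 0.17 to 0.67 for HYH, -0.37 to -0.045 for COP10, 0.064 to 0.23 for DET1, -3.53 to 0.38 points for the SPA1 share and -0.061 to 0.36 for the log2 ratio of DDB1A to DDB1B. The cause was not tested. Depth limits HY5, HYH, SPA3 and SPA4 most.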
